A study of Mus musculus with 45 samples.

Results

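The genes described here are 42 genes of cell proliferation, 15 that act in S phase and 27 that act in mitosis, out of 47729 genes in the expression tables. They were listed by name for their function, with no threshold on a measured value. All 42 were found in the tables. The test took genes with over 5 reads in 6 or more libraries of 45, which 41 members met, whereas the S phase regulator E2f1 did not reach this minimum.

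Tuft cells, rare chemosensory cells of the gut epithelium, were sorted from the small intestine of male C57BL/6J mice as EpCAM+ Siglec-F+ cells. The study's methods write the sorted cells as CD45+ but also state that CD45 served to exclude cells, and its results leave CD45 out. RNA of each mouse was amplified with the Smart-seq2 protocol and sequenced in bulk. The mice arrived at 5 weeks of age and were housed at 30°C on a low-fat reference diet (RFD, 10% fat) or a high fat diet (HFD, 60% fat). The set named STF held 11 RFD and 11 HFD libraries after 9 weeks of feeding, and the set named LTF held 11 RFD and 12 HFD libraries. The sample labels give 9 weeks for both sets, and 22 weeks for the LTF set was taken from the study's methods. The labels name no transgene or deletion, and each library came from 1 mouse, so p-values rest on the spread between mice. By the study's methods the mice shared cages, and the tests took no account of cage. The 2 feeding times were separate sets of libraries, and time and set cannot be told apart.

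A cell that divides first copies its DNA in S phase and then parts the copies in mitosis. Genes of S phase encode the helicase and clamp of the replication fork and the enzymes that supply nucleotides, and they are known targets of E2F transcription factors. Genes of mitosis encode cyclins, kinases, motors and checkpoint proteins of the spindle. Many of them are known to be repressed in resting cells through the DREAM complex at a promoter element named CHR. In the gut epithelium, division takes place in the crypts, in stem cells and their early progeny, and mature tuft cells are not thought to divide.

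The libraries held 189340 to 4690213 reads on genes, and 1 RFD and 1 HFD library at 9 weeks had fewer than 500000. All 12 tuft cell markers examined, among them Dclk1, Trpm5 and Chat, were tested, and 9 of the 12 had a read in every library. Their summed level ranged from 848 to 12322 TPM (a transcript level scaled for gene length and for library total) on RFD at 9 weeks, from 44.7 to 11817 TPM on HFD, from 2465 to 14565 TPM on RFD at 22 weeks and from 382 to 11376 TPM on HFD. In the HFD library of mouse 80 at 9 weeks, 12 tuft markers summed to 44.7 TPM and 6 Paneth cell markers to 390050 TPM, so that this library stood apart from its label. Libraries with more than 100000 TPM in the Paneth markers numbered 7 at 9 weeks and 3 at 22 weeks, and results are also given without them. In bulk RNA, more cycling cells and more RNA of these genes in each cell cannot be told apart.

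Among the members, Stmn1, which encodes the microtubule destabilizer stathmin, had the highest median level over the 45 libraries at 54.9 TPM. It was followed by Ube2c, the ubiquitin-conjugating enzyme of the anaphase-promoting complex, at 39.6 TPM and by Pcna, the sliding clamp of the replication fork, at 33.5 TPM. Cks2, a Cdk1-binding subunit, had a median of 32.2 TPM. Among S phase genes, Pcna was followed by Tyms, encoding thymidylate synthase, at 26.6 TPM and by Mcm6, a subunit of the replicative helicase, at 16.4 TPM. These steps were small beside the spread between mice, since Stmn1 alone ranged up to 284 TPM and was without a read in 1 library. Mki67, the gene of the proliferation antigen Ki-67, was low per length, with a median of 1.93 TPM, although 44 libraries held a read of it. Ccne1, encoding cyclin E1, had a median of 0.73 TPM and reads in 27 libraries, and E2f1 had reads in 19.

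Promoter windows were read for the members to show the elements that the lists share. RefSeq windows on GRCm38.p6, which span 250 bases before to 50 bases after a gene's start, were matched for 34 of the 42 members and gave 36 windows. Tpx2, Aurkb, Ccna2, Kif20a, Incenp, Stmn1, Gins2 and Mcm4 had no entry. The CHR element (TTTGAA or TTCGAA, on either strand) was in 17 of 22 windows of mitosis genes (77.3%), in 2 of 14 windows of S phase genes (14.3%) and in 19.2% of all 32851 windows. All 17 mitosis windows with a CHR also held a CCAAT box (77.3% of the list), as did 14.3% of the S phase windows and 7.52% of all windows. A CCAAT box alone, on either strand, was in 90.9% of mitosis windows, 64.3% of S phase windows and 37.4% of all windows. An E2F site (TTTCCCGC, TTTCGCGC, TTTGCCGC or TTTGGCGC, on either strand) showed the opposite order, with 35.7% of S phase windows, 4.55% of mitosis windows and 2.26% of all windows. Other S phase and mitosis genes, 39 and 46 that are not members, had an E2F site in 40.5% and 9.76% of their windows and a CHR in 18.9% and 70.7%. A match is a description of letters and not evidence of a bound site.

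The windows of 6 members are shown, 3 that rose on HFD at 9 weeks (Tk1, Hmgb2 and Aurka) and 3 that stand for the S phase helicase (Mcm6), the mitotic kinase (Cdk1) and chromosome structure (Top2a). Capitals mark CHR, CCAAT and E2F letters on either strand, and all windows are written 5′ to 3′ on the gene's own strand. The Tk1 window lies at chr11:117825965-117826264 (minus strand), that of Mcm6 at chr1:128359656-128359955 (minus), that of Hmgb2 at chr8:57511593-57511892 (plus), that of Aurka at chr2:172370521-172370820 (minus), that of Cdk1 at chr10:69352863-69353162 (minus) and that of Top2a at chr11:99024140-99024439 (minus).
Tk1: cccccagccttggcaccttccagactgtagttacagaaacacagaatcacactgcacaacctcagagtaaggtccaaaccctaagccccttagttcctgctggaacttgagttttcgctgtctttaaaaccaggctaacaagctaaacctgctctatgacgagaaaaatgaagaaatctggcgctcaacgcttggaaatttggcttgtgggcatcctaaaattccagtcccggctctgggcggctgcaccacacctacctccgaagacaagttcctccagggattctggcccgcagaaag
Mcm6: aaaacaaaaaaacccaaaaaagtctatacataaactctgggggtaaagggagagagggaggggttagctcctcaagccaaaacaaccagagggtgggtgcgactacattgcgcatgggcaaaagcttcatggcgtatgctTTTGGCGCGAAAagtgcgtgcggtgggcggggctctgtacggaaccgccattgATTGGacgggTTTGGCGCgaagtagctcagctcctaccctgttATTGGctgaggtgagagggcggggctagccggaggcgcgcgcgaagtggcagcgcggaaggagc
Hmgb2: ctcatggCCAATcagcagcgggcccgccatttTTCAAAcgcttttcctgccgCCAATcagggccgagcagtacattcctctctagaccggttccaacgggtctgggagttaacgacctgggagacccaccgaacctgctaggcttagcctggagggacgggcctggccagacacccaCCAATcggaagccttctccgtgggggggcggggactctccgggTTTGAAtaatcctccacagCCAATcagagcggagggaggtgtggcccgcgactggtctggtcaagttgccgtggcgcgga
Aurka: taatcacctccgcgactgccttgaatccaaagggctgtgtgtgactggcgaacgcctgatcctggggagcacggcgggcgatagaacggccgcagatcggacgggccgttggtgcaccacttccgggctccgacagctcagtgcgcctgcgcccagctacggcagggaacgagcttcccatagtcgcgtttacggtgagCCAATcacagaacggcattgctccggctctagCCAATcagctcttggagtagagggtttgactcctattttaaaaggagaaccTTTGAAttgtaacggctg
Cdk1: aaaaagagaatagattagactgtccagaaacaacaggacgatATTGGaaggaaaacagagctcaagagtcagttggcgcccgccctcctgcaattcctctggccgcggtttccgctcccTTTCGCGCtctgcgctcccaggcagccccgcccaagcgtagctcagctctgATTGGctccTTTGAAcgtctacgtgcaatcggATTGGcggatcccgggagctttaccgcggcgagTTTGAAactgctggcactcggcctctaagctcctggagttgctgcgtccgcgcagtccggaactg
Top2a: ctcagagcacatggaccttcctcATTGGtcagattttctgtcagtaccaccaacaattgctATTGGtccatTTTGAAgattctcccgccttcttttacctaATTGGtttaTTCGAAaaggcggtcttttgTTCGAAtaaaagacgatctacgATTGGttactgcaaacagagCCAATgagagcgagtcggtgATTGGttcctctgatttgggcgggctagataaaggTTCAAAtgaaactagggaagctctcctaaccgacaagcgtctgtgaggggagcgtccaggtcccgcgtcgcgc

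None of the 3 elements was found in the Tk1 window. Mcm6 held 3 E2F sites, 1 of which overlaps another on the opposite strand, with 2 CCAAT boxes. Hmgb2, Cdk1 and Top2a held 2, 2 and 4 CHR elements beside 4, 3 and 6 CCAAT boxes, and Cdk1 also held 1 E2F site. Aurka held 1 CHR and 2 CCAAT boxes.

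At 9 weeks, the question was whether HFD changed the cell cycle genes of the sorted cells. Levels were higher on HFD for 40 of the 41 members tested, against 47.3% of all 14020 genes, and 5 members rose (adjusted p under 0.1, from the quasi-likelihood test of edgeR after Benjamini-Hochberg correction over all genes). These were Incenp, Hmgb2, Stmn1 and Aurka of the 27 mitosis genes and Tk1 of the 14 S phase genes tested, and no member fell. Over all genes, 3.07% were called in either direction and 1.83% were called higher. An unadjusted p under 0.05 with a higher level was reached by 20 of 27 mitosis genes and 11 of 14 S phase genes, where 9.86% of all genes did so.

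The summed level of the 27 mitosis genes ranged from 67.1 to 770 TPM on RFD (median 303) and from 116 to 1747 TPM on HFD (median 692) at 9 weeks. Of the 11 HFD libraries, 9 were above the RFD median and 4 were above every RFD library. For the 15 S phase genes the range was 84.9 to 449 TPM on RFD (median 141) and 133 to 625 TPM on HFD (median 316), and 3 HFD libraries were above every RFD library. The medians in TPM differed 2.28-fold and 2.24-fold, and the groups overlapped in both lists. The edgeR test used counts, not TPM. As counts scaled for library size but not for gene length (CPM), the mitosis medians were 613.6 on RFD and 1864.4 on HFD. The S phase medians were 378.9 and 1134 CPM. HFD mouse 80, rich in Paneth markers and lowest of its group in S phase TPM, was the highest in CPM at 1567.8. RFD mouse 20 was higher still at 1701.4 CPM. In TPM, the ratio of the summed mitosis level to the summed S phase level was alike. Its median was 1.89 on RFD and 1.96 on HFD.

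**Figure D1:**
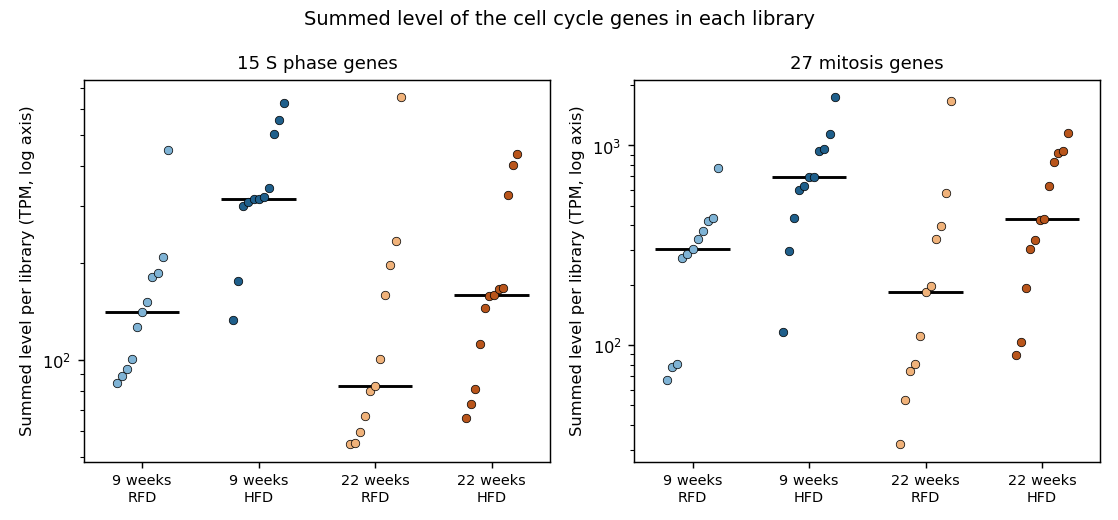
Summed level of the 15 S phase genes (left) and the 27 mitosis genes (right), with 1 point per library on a log axis in TPM and a bar at the group median. At 9 weeks the RFD and HFD medians are 141 and 316 TPM (S phase) and 303 and 692 TPM (mitosis), and at 22 weeks the RFD library of mouse 1 stands above all others of its group at 654 and 1672 TPM.

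Incenp, the scaffold of the chromosomal passenger complex that carries Aurora B, had the smallest p of all members. The gene spans chr19:9872296-9899551 on the minus strand (GRCm38). On RFD its level ran from 0.00 over a median of 0.99 to 3.20 TPM, and on HFD from 0.45 over 4.97 to 15.3 TPM. Thus 9 of 11 HFD libraries lay above every RFD library, and the gene rose by a log2 fold change of 2.34 ± 0.45 (SE), or 5.05-fold (adjusted p = 0.0187). The other 3 genes of this complex, Aurkb, Birc5 and Cdca8, were higher without passing the test, with adjusted p of 0.341, 0.145 and 0.141.

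Hmgb2 encodes a chromatin protein abundant in dividing cells. Its level ran from 4.90 over 19.6 to 36.2 TPM on RFD and from 14.9 over 37.6 to 111 TPM on HFD. The highest 7 HFD libraries were above every RFD library, and the log2 fold change was 1.37 ± 0.325 (adjusted p = 0.0515). Mki67 ran from 0.20 over 1.78 to 3.81 TPM on RFD and from 0.31 over 4.04 to 10.6 TPM on HFD. Although 6 HFD libraries exceeded every RFD library, the difference of 1.25 ± 0.45 in log2 did not pass the test (adjusted p = 0.146). Top2a, encoding the topoisomerase that disentangles sister DNA, ran from 0.00 over 8.84 to 26.4 TPM on RFD and from 0.62 over 20.7 to 61.4 TPM on HFD. Its groups overlapped widely, with 4 HFD libraries below the RFD median (2.29-fold, adjusted p = 0.258).

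Stmn1 ran from 4.47 over 39.7 to 97.9 TPM on RFD and from 9.32 over 104 to 185 TPM on HFD. Higher levels than in any RFD library were found in 7 of 11 HFD libraries, and the log2 fold change was 1.67 ± 0.475 (adjusted p = 0.0811). Aurka, the Aurora kinase of the spindle poles, ran from 0.63 over 4.85 to 20.2 TPM on RFD and from 5.64 over 16.9 to 42.6 TPM on HFD. Every HFD library was above the RFD median and 4 were above every RFD library, with a log2 fold change of 1.35 ± 0.40 (adjusted p = 0.0866).

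Cdk1, the kinase that starts mitosis, ran from 0.00 over 21.7 to 81.0 TPM on RFD and from 8.83 over 64.6 to 144 TPM on HFD. Only 2 HFD libraries exceeded every RFD library, and the log2 difference of 1.58 ± 0.55 had an adjusted p of 0.138. Its partner Ccnb1, encoding cyclin B1, had medians of 19.5 and 37.0 TPM, with ranges of 0.00 to 44.5 and 5.79 to 131 TPM (1.29 ± 0.55, adjusted p = 0.213). Cks2 had medians of 19.0 and 45.8 TPM, and 6 HFD libraries were above every RFD library (1.34 ± 0.53, adjusted p = 0.177). Neither gene passed the test.

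Of the genes of anaphase, Cdc20, an activator of the anaphase-promoting complex, ran from 0.00 over 21.4 to 43.7 TPM on RFD and from 14.6 over 41.8 to 90.8 TPM on HFD. No HFD library was without reads, 5 exceeded every RFD library, and the log2 difference was 1.42 ± 0.47 (adjusted p = 0.12). Ube2c had medians of 34.2 and 61.3 TPM, and 3 HFD libraries were above every RFD library (1.17 ± 0.58, adjusted p = 0.281). Of the spindle motors and binders, Kif11, Nusap1 and Cenpe had RFD medians of 1.63, 3.88 and 0.98 TPM and HFD medians of 6.45, 11.8 and 3.13 TPM. They did not pass the test, with adjusted p of 0.248, 0.214 and 0.193.

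Among the S phase genes, Tk1, the thymidine kinase of the salvage pathway, was the member that rose. It ran from 0.00 over 12.1 to 37.1 TPM on RFD and from 10.7 over 31.3 to 68.5 TPM on HFD. In 5 HFD libraries it was above every RFD library, and it was 2.82-fold higher (adjusted p = 0.0944). Tyms ran from 8.88 over 21.3 to 72.6 TPM on RFD and from 15.7 over 56.5 to 151 TPM on HFD (1.09 ± 0.37, adjusted p = 0.132). Rrm1, the large subunit of ribonucleotide reductase, had medians of 7.19 and 19.5 TPM (1.21 ± 0.53, adjusted p = 0.221). These 2 enzymes of nucleotide supply did not pass the test, although 3 and 5 HFD libraries exceeded every RFD library.

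Of the MCM helicase, which unwinds DNA at the fork, 6 subunits are members, and 0 passed edgeR's test, with adjusted p from 0.105 (Mcm7) to 0.353 (Mcm4), while Mcm5 had 0.238. At an unadjusted p under 0.05 were 5 of the 6, all but Mcm4. Mcm7 ran from 2.89 over 11.1 to 28.02 TPM on RFD and from 9.27 over 24.7 to 46.1 TPM on HFD (1.08 ± 0.34, adjusted p = 0.105). Mcm3 ran from 2.65 over 7.04 to 29.2 TPM on RFD and from 6.67 over 19.8 to 41.8 TPM on HFD (1.25 ± 0.41, adjusted p = 0.116). All 11 HFD libraries were above the RFD median for Mcm6 (medians 11.4 and 39.6 TPM, adjusted p = 0.152) and for Mcm2 (medians 4.97 and 18.6 TPM, adjusted p = 0.239). For both genes 1 RFD library reached nearly the highest HFD level, with 60.4 against 68.2 TPM and 30.9 against 36.8 TPM.

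Pcna had reads in every library, from 9.71 over 25.5 to 63.8 TPM on RFD and from 17.3 over 51.2 to 77.5 TPM on HFD. The difference in log2 was 0.79 ± 0.28 (adjusted p = 0.138). Gins2, a subunit of the GINS complex of the replicative helicase that is named after its values were seen, was the exception, with medians of 10.9 and 15.7 TPM but a fitted log2 difference of -0.003 ± 0.276 (adjusted p = 0.997). Ccne1 had no read in 7 of 11 RFD libraries and reads in all 11 HFD libraries, with at most 37 and 74 reads (2.10 ± 0.875, adjusted p = 0.201). E2f1, chosen for mention after its values were seen, had no read in any of 11 RFD libraries and had reads in 7 of 11 HFD libraries, with at most 0.83 TPM.

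The other 14 members were higher on HFD at 9 weeks without passing the test. Of these, Kif23, a motor of the central spindle, differed most, with medians of 0.95 and 5.66 TPM (2.04 ± 0.73, adjusted p = 0.145), and Cenpf, a kinetochore protein, least, with 3.55 and 5.42 TPM (0.75 ± 0.57, adjusted p = 0.504). Plk1, the Polo-like kinase of mitosis, had medians of 5.54 and 17.4 TPM, and 7 HFD libraries were above every RFD library (1.51 ± 0.66, adjusted p = 0.224). The checkpoint kinases Bub1 and Bub1b had adjusted p of 0.394 and 0.315, and the cyclins Ccna2 and Ccnb2 of 0.448 and 0.167. Mcm4, Mcm5, Rrm2, Hells, Kif20a, Tpx2 and Prc1 had log2 differences from 0.89 to 1.34, with adjusted p from 0.155 to 0.426.

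**Figure D2:**
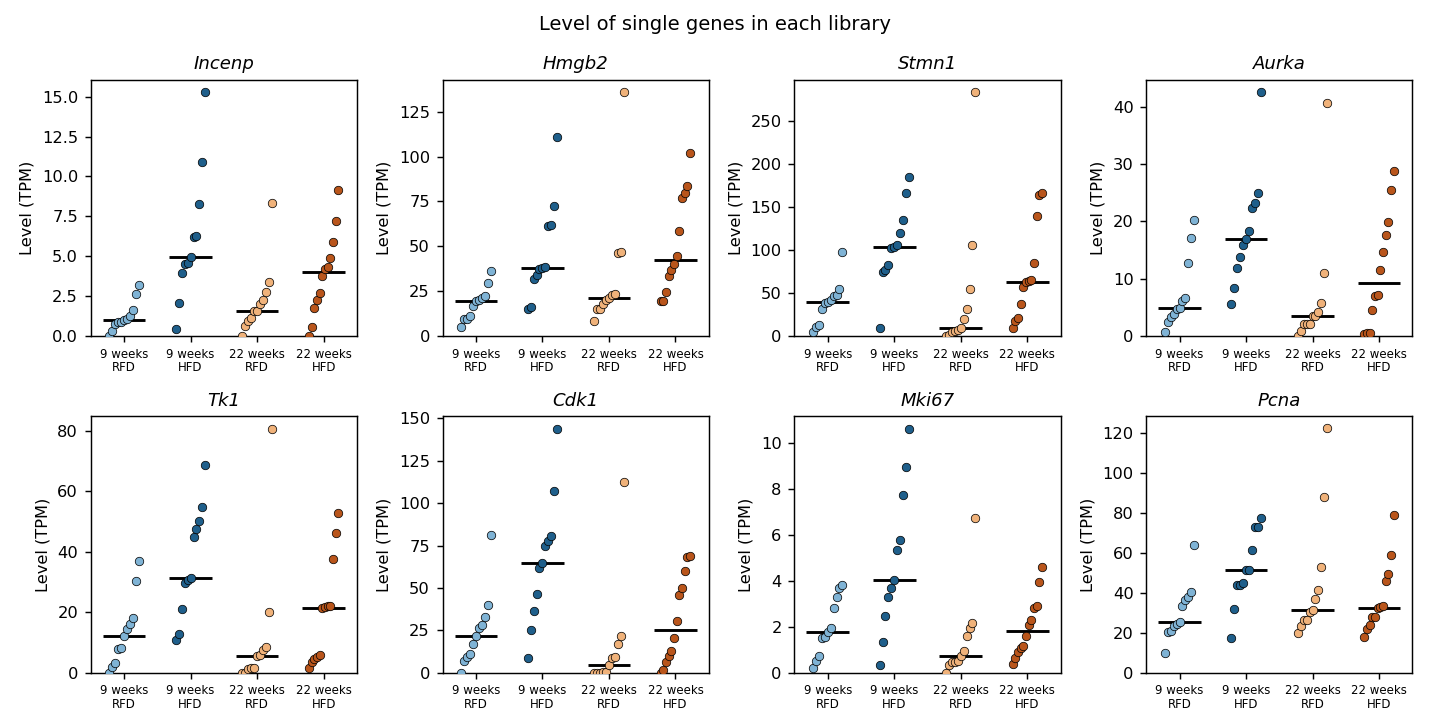
Level in TPM of 8 members, with 1 point per library and a bar at the group median. Incenp, Hmgb2, Stmn1, Aurka and Tk1 rose at 9 weeks, Cdk1, Mki67 and Pcna did not pass the test, and at 22 weeks 1 RFD library (mouse 1) holds the highest RFD level in each panel except Pcna, where it is second.

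The count of called members at 9 weeks depended on single libraries. The RFD library of mouse 20 held the highest RFD level of 14 S phase and 18 mitosis genes, and without it 12 of 14 S phase and 22 of 27 mitosis genes rose, while calls over all genes went from 3.07% to 12.2%. Without the HFD library of mouse 64, the lowest of its group in summed mitosis level at 116 TPM, 9 and 18 rose and 14.3% of all genes were called. Without HFD mouse 63, 6 S phase and 5 mitosis genes rose and 6.47% of all genes were called. In the S phase list the single call was lost without any 1 of 18 libraries, that is, of any but RFD mouse 20 and HFD mice 7, 63 and 64, and calls over all genes were then 0.342% to 3.94% and fewer than with all libraries in 16 of the 18. Mitosis calls numbered 1 without RFD mouse 24 or HFD mouse 6, 70 or 80, and 2 without RFD mouse 1, 3, 84, 21, 22 or 23 or HFD mouse 8, 50 or 62. Calls over all genes fell as well in each of these omissions, to 0.342% to 0.556% in the former and to 0.521% to 1.33% in the latter. The median log2 fold changes moved less, from 1.04 to 1.66 for S phase and from 1.17 to 1.78 for mitosis over all 22 omissions. Incenp was called in all 22 and Hmgb2 in 18.

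**Figure D3:**
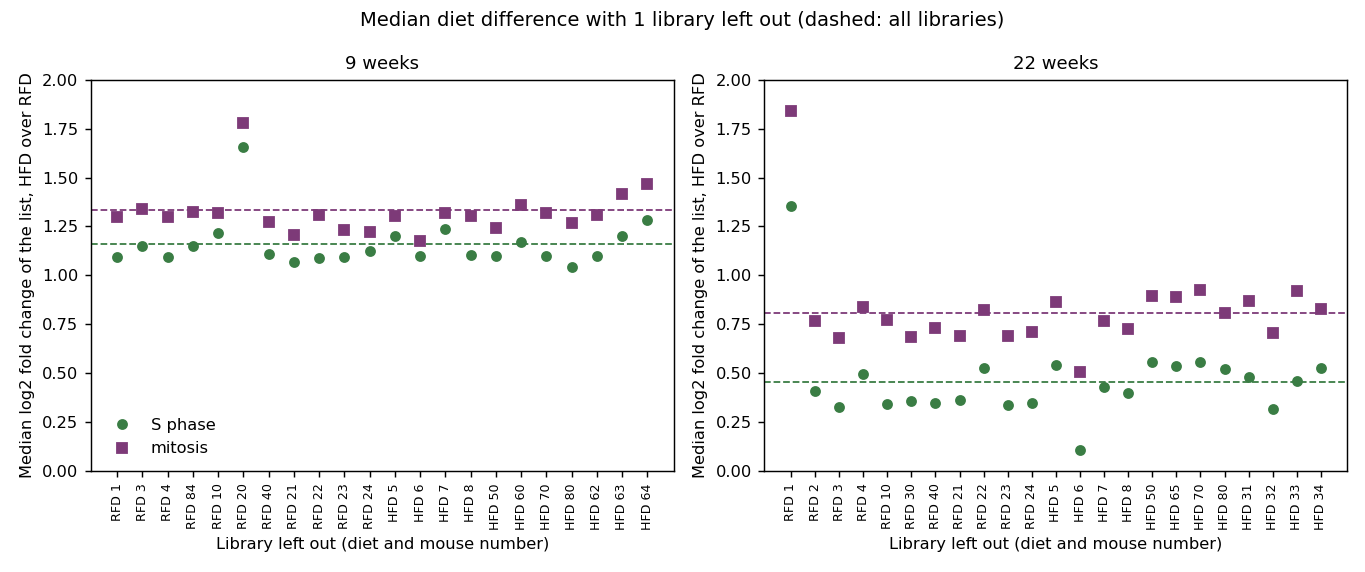
Median log2 fold change (HFD over RFD) of the 14 S phase genes tested and the 27 mitosis genes when the library named on the x axis is left out, with dashed lines for all libraries. Leaving out RFD mouse 20 gives the highest medians at 9 weeks (1.66 and 1.78), and leaving out RFD mouse 1 gives the highest at 22 weeks (1.35 and 1.84).

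By the numbers of the mice, nearly all libraries belong to 1 of 3 series (1 to 8, multiples of 10, and 21 to 64), whose meaning is not given in the sources used here. By the study's methods, mice were killed over 3 days with a cage of every group on each day, and whether a series marks a day is not stated. At 9 weeks the median log2 fold change within these series was 1.62, 0.43 and 1.54 for the S phase genes and 1.66, 0.42 and 1.70 for the mitosis genes. The middle series holds RFD mouse 20. Incenp was higher in each series, by 2.38, 2.00 and 2.28, and Hmgb2 by 1.69, 0.65 and 1.65. With the series as a term in the model, 8 S phase and 9 mitosis genes rose and 3.1% of all genes were called.

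The count of calls also moved with the method, for the members as for all genes. DESeq2 called 20 of 41 members and 10.9% of all genes, robust dispersion in edgeR called 6 and 3.32%, and a fit without the filter on low counts called 6 of 42 and 0.799%. In 1 fit over 45 libraries 2 members and 4.76% of all genes were called, and without libraries under 500000 reads 2 members and 1.81%. With limma on log2(TPM + 1), log2(TPM + 0.1) and unfiltered log2(TPM + 1), 0 members were called and 0.0642%, 0.0357% and 0.00914% of all genes, while 32, 26 and 31 members had an unadjusted p under 0.05, against 12.3%, 11.3% and 5.84% of all genes.

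At 22 weeks, the same comparison gave 0 called members by edgeR's quasi-likelihood test, 0 at an unadjusted p under 0.05 and 0 called by DESeq2 and by limma on log2(TPM + 1). Over all genes, edgeR called 0.728%, DESeq2 2.5% and limma 0.364%, and 10.3% had an unadjusted p under 0.05 by edgeR. By limma 17 of the 41 members had one, against 9.72% of all genes. Levels were still higher on HFD for 37 of 41 members, 11 of 14 in S phase and 26 of 27 in mitosis, against 47.9% of all genes. The median log2 fold change was 0.46 for S phase and 0.81 for mitosis, and that of all genes was -0.03.

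The summed mitosis level ran from 31.9 over a median of 184 to 1672 TPM on RFD and from 89.8 over 427 to 1153 TPM on HFD. Of the 12 HFD libraries, 10 were above the RFD median and 0 were above the highest RFD library. The summed S phase level ran from 54.6 over 82.6 to 654 TPM on RFD and from 66.0 over 158 to 436 TPM on HFD. For both lists the top of the RFD range was 1 library, that of mouse 1, and the next RFD library stood at 581 and 234 TPM. Mouse 1 held the highest RFD level of 24 mitosis and 11 S phase genes. The ratio of mitosis to S phase levels had medians of 1.69 on RFD and 2.65 on HFD, with ranges of 0.584 to 3.09 and 1.10 to 5.21.

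The smallest p among mitosis genes at 22 weeks was that of Hmgb2. It ran from 8.20 over 21.02 to 136 TPM on RFD and from 19.5 over 42.4 to 102 TPM on HFD (0.67 ± 0.38, adjusted p = 0.568). Apart from mouse 1 the highest RFD level was 46.5 TPM. Incenp had medians of 1.59 and 3.99 TPM (0.94 ± 0.55, adjusted p = 0.584), Nusap1, a spindle microtubule binder, 0.98 and 6.83 TPM (1.23 ± 0.735, adjusted p = 0.59), Cenpe, a kinetochore motor, 0.32 and 1.93 TPM (adjusted p = 0.589) and Kif11, the motor that parts the spindle poles, 1.54 and 4.99 TPM (adjusted p = 0.64). Each had 1 RFD library above or close to the highest HFD level, except Cenpe, in which 2 HFD libraries were above every RFD library.

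Of the genes called at 9 weeks, Stmn1 had medians of 8.77 TPM on RFD and 62.9 TPM on HFD at 22 weeks, with 11 of 12 HFD libraries above the RFD median and mouse 1 of RFD at 284 TPM (0.77 ± 0.69, adjusted p = 0.759). Aurka had medians of 3.47 and 9.26 TPM (0.78 ± 0.68, adjusted p = 0.75). Tk1 had medians of 5.64 and 21.5 TPM (0.79 ± 0.705, adjusted p = 0.758). In each of these 3 genes the RFD library of mouse 1 was above every HFD library.

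In the replication genes, Tyms had medians of 8.16 and 27.3 TPM (0.62 ± 0.47, adjusted p = 0.698) and Rrm1 of 3.74 and 10.2 TPM (0.64 ± 0.55, adjusted p = 0.74). Pcna was level, with medians of 31.1 and 32.5 TPM and a log2 difference of -0.125 ± 0.29 (adjusted p = 0.925). Mcm7 was likewise near 0, with medians of 12.8 and 13.4 TPM and a difference of -0.062 ± 0.567 (adjusted p = 0.981), and both differences turned positive without RFD mouse 1, at 0.08 and 0.35. Ccne1 had no read in 5 of 11 RFD and 6 of 12 HFD libraries (-1.04 ± 0.91, adjusted p = 0.75).

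Without the RFD library of mouse 1, 7 mitosis genes and 0 S phase genes were called at 22 weeks, all 7 higher on HFD, and 4.63% of all genes were called. The 7 were Nusap1, Bub1b, Hmgb2, Kif11, Top2a, Cdca8 and Aurkb. At an unadjusted p under 0.05 stood 22 of 27 mitosis and 8 of 14 S phase genes, against 17.3% of all genes. Hmgb2 then differed by 1.22 ± 0.325 in log2 (adjusted p = 0.0478) and Nusap1 by 2.72 ± 0.69 (adjusted p = 0.0354). The median log2 fold change was 1.84 for mitosis and 1.35 for S phase. Each other omission of 1 library at 22 weeks left both counts at 0. Omitting HFD mouse 6 gave the lowest medians, 0.51 and 0.11.

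Within the 3 series of mouse numbers, the median log2 fold change at 22 weeks was 0.47, 1.39 and 2.07 for the mitosis genes and 0.41, 0.51 and 1.03 for the S phase genes. The first series holds RFD mouse 1. With the series as a term in the model, 0 members were called by edgeR and 11 had an unadjusted p under 0.05, against 11.6% of all genes.

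**Figure D4:**
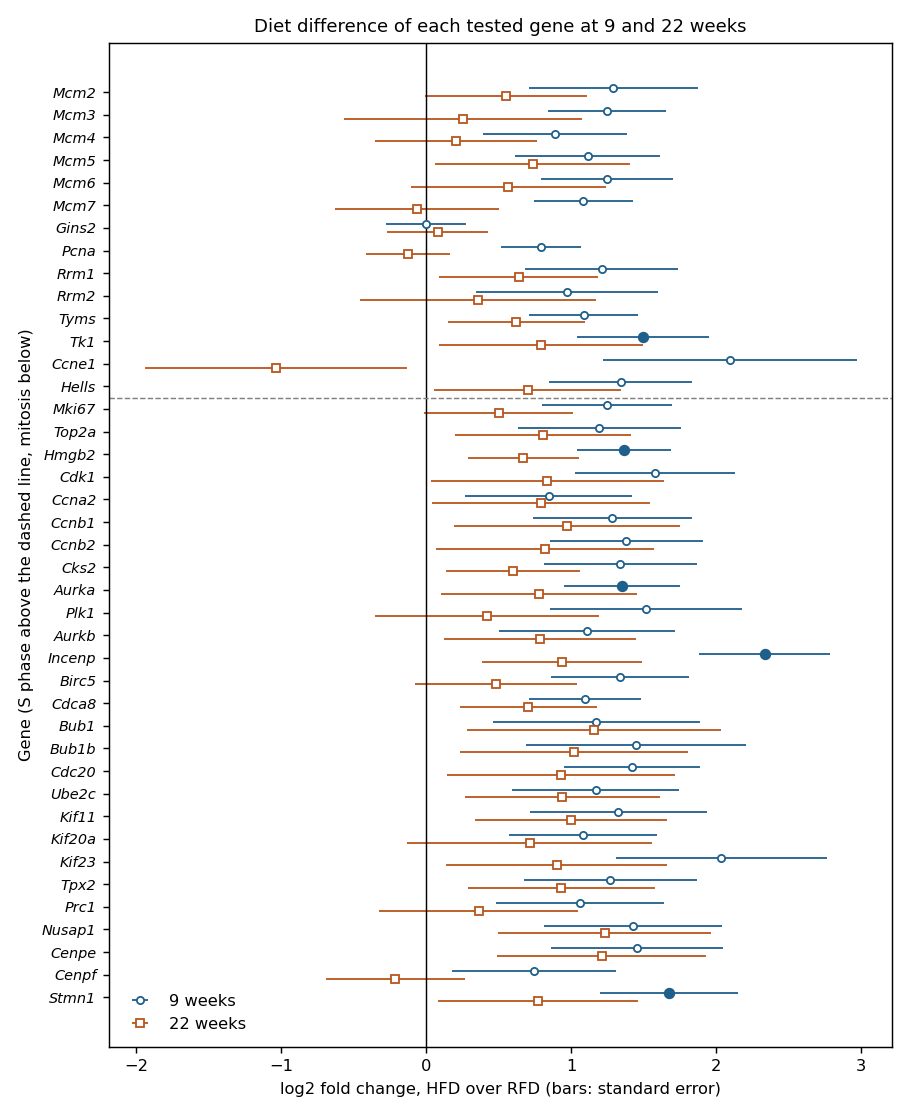
Log2 fold change, HFD over RFD, of the 41 members tested (bars are standard errors, circles 9 weeks, squares 22 weeks, filled symbols adjusted p under 0.1). At 9 weeks 40 of 41 lie above 0 and 5 are filled, and at 22 weeks 37 of 41 lie above 0 and none is filled.

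Whether the diet difference itself changed between the sets was tested with an interaction term over all 45 libraries. No member was called by edgeR's quasi-likelihood test (0 of 41, with 0 by DESeq2), where 1 of 14020 genes was called (0.00713%), and 2 members had an unadjusted p under 0.05, against 3.27% of all genes. These were Ccne1, with a change of -3.16 ± 1.30 in log2, and Pcna, with -0.90 ± 0.41, both with an adjusted p of 1.0. With the mouse number as a block, over 32 libraries whose number was in both sets, 7 members had an unadjusted p under 0.05, and 0 were called. Over all genes 5.01% had an unadjusted p under 0.05. That block joins different mice, since the 2 sets hold separate animals. The change was below 0, a smaller difference at 22 weeks, for 40 of 41 members, with medians of -0.68 for S phase and -0.49 for mitosis. Over all genes the median was 0.06 and 54.3% were above 0. The members share the same libraries, so this count is a description, and the lists as wholes were not tested. No single member is thus shown to differ in its diet difference between the sets.

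Of 39 other genes of S phase, 36 were higher on HFD at 9 weeks and 2 rose. Prim1, the catalytic subunit of DNA primase, went from a median of 7.91 to 19.5 TPM, with 8 HFD libraries above every RFD library (1.62 ± 0.42, adjusted p = 0.0691). E2f8, an E2F repressor, went from 1.00 to 3.91 TPM (2.11 ± 0.61, adjusted p = 0.0836). Of 46 other genes of mitosis, 44 were higher and 2 rose. Mad2l1, of the spindle checkpoint, went from 6.08 to 16.3 TPM and was above the RFD median in all 11 HFD libraries (1.55 ± 0.42, adjusted p = 0.0747). Spc24, of the kinetochore, went from 10.0 to 23.1 TPM (1.20 ± 0.35, adjusted p = 0.0866). The median log2 fold changes of these lists were 1.01 and 1.14, and at 22 weeks 0.22 and 0.30 with 0 genes called by edgeR's quasi-likelihood test and 0 at an unadjusted p under 0.05 in either list.

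Genes of G1 and of cell cycle exit, 18 tested of 19, did not follow the members as a list. At 9 weeks 8 were higher and 10 lower on HFD, with log2 fold changes from -0.83 over a median of -0.14 to 1.45. By edgeR's quasi-likelihood test 0 were called, and 3 were higher at an unadjusted p under 0.05, against 9.86% of all genes. Cdkn1a, the p21 inhibitor of cyclin-dependent kinases, was abundant, with medians of 945 TPM on RFD and 429 TPM on HFD (-0.83 ± 0.42, adjusted p = 0.291). At 22 weeks its medians were 1136 and 814 TPM, and 11 of 12 HFD libraries were below the RFD median (-0.66 ± 0.29, adjusted p = 0.438). Ccnd1 and Ccnd2, encoding D-type cyclins of G1, had medians of 3.65 and 49.9 TPM on RFD and 8.73 and 132 TPM on HFD at 9 weeks, with adjusted p of 0.146 and 0.254. At 22 weeks 0 of the 18 were called, with 1 higher and 2 lower at an unadjusted p under 0.05.

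Markers of crypt stem and Paneth cells were also higher on HFD in each set taken whole. Beyond the fits with marker covariates and without libraries rich in Paneth markers, their part in the result was not tested. The 6 crypt stem cell markers, which include Lgr5 and Olfm4, were all higher on HFD at 9 weeks, with summed levels of 115 to 684 TPM on RFD (median 194) and 63.7 to 1140 TPM on HFD (median 721). Olfm4 and Smoc2 rose among them (2.05 ± 0.56, adjusted p = 0.0766, and 1.71 ± 0.42, adjusted p = 0.0624). The 6 Paneth markers were all higher, with sums of 193 to 231920 TPM on RFD (median 10182) and 391 to 390050 TPM on HFD (median 75397), and 0 passed the edgeR test (4 at an unadjusted p under 0.05). All 12 tuft markers were lower, with median sums of 8416 and 3670 TPM, and 0 passed the edgeR test (6 at an unadjusted p under 0.05). Goblet markers were higher in 6 of 6, with 1 called, and enterocyte markers lower in 6 of 8, with 1 called higher. Of the 7 T lymphocyte, 4 B lymphocyte and 7 myeloid markers, 10 were tested in all, none was called, and their median sums were at most 14.5 TPM in any group, although the myeloid sum reached 384 TPM in 1 HFD library at 9 weeks and 1190 TPM in 1 HFD library at 22 weeks.

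In each set, the RFD library with the highest summed S phase and mitosis levels also had the highest RFD sums of crypt stem and Paneth markers. RFD mouse 20 at 9 weeks had the highest RFD sums of crypt stem (684 TPM), Paneth (231920 TPM) and goblet markers (6116 TPM) and the lowest of enterocyte markers (5270 TPM). RFD mouse 1 at 22 weeks had the highest RFD sums of crypt stem (1328 TPM), Paneth (147220 TPM) and goblet markers (6224 TPM) and the lowest of tuft (2465 TPM) and enterocyte markers (9509 TPM). By CPM, the RFD libraries next in summed mitosis level were mouse 10 at 9 weeks (994.6) and mouse 22 at 22 weeks (611.2). They were also next among RFD libraries in crypt stem markers (733.2 and 411.7 CPM) and Paneth markers (94847 and 25057 CPM). By TPM, other RFD libraries were next in summed mitosis level, and these did not stand out in this way. Mouse 3 at 22 weeks (581 TPM, reads in 12 mitosis genes) had the lowest RFD sums of crypt stem (11.6 TPM) and Paneth markers (179 TPM). Mouse 84 at 9 weeks (436 TPM) had 171 TPM of crypt stem and 893 TPM of Paneth markers. Among HFD libraries at 9 weeks, mouse 64, the lowest in summed mitosis level, had the lowest sums of crypt stem (63.7 TPM), Paneth (391 TPM) and goblet markers (2238 TPM). Its sum of tuft markers was the highest of that group (11817 TPM). At 22 weeks the crypt stem markers had median sums of 56.8 TPM on RFD and 148 TPM on HFD, all 6 were higher, and 0 were called by edgeR (1 at an unadjusted p under 0.05). The 6 Paneth markers had median sums of 3338 and 36183 TPM, all were higher, and 0 were called by edgeR (0 at an unadjusted p under 0.05). Their median log2 fold change within the 3 series of mouse numbers was 2.03, 3.06 and -0.96, with 0 of 6 higher in the last series. In that series 26 of 27 mitosis genes and 5 of 6 crypt stem markers were higher. HFD mouse 80 at 22 weeks had the lowest Paneth sum of its group (149 TPM) beside 827 TPM of mitosis genes. HFD mouse 32, the highest of that group in mitosis genes (1153 TPM), had 71842 TPM of Paneth and 755 TPM of crypt stem markers. HFD mouse 33, the lowest (89.8 TPM), had 1054 and 36.6 TPM. How these sums relate was not tested. The 6 enteroendocrine markers were all lower on HFD, with median sums of 182 and 6.75 TPM, and Cck and Gcg, which encode gut hormones, fell (adjusted p = 0.000499 and 0.0185). At 9 weeks their median sums were 96.6 and 54.8 TPM, 4 of 6 were higher, and 0 were called by edgeR (0 at an unadjusted p under 0.05).

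**Figure D5:**
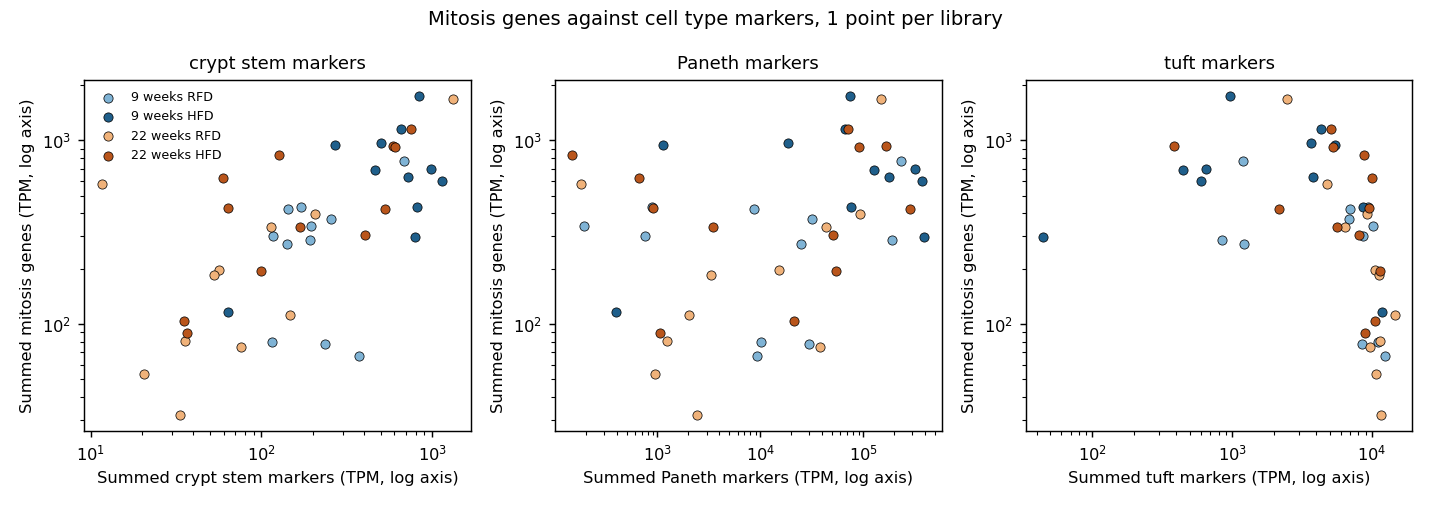
Summed level of the 27 mitosis genes against summed crypt stem, Paneth and tuft cell markers, both axes in TPM on log scales, with 1 point per library colored by group. The RFD library of mouse 1 at 22 weeks lies at 1328 TPM of crypt stem markers and 1672 TPM of mitosis genes, and the HFD library of mouse 80 at 9 weeks lies at 44.7 TPM of tuft markers.

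With the level of the crypt stem markers as a covariate, 0 members were called at 9 weeks, with 8 of 41 at an unadjusted p under 0.05 against 7.65% of all genes, and 0.0285% of all genes were called. The median log2 fold change was then 0.62 for S phase and 0.88 for mitosis, with 40 of 41 members still higher on HFD. Incenp differed by 1.68 ± 0.45 (adjusted p = 0.254) and Hmgb2 by 1.00 ± 0.31 (adjusted p = 0.394). With the level of tuft markers relative to markers of other epithelial cells as the covariate, 0 members were called, with 7 at an unadjusted p under 0.05 against 6.96% of all genes, 0.0999% of all genes were called, and the medians were 0.49 and 0.61. The 7 libraries rich in Paneth markers were those of RFD mice 10 and 20 and of HFD mice 8, 50, 60, 70 and 80. Without them the medians were 1.59 and 1.63, 2 members were called (Hmgb2 and Tyms, both with adjusted p = 0.0792) and 0.257% of all genes were called. Omitting RFD mouse 20 alone gave medians of 1.66 and 1.78. At 22 weeks 0 members were called with either covariate or without the libraries rich in Paneth markers. With the crypt stem covariate the medians were 0.15 and 0.40, and 1 of 41 members had an unadjusted p under 0.05 against 6.13% of all genes. With the tuft covariate they were 0.53 and 1.02, and 15 members had one against 10.0% of all genes. Without the 3 libraries rich in Paneth markers they were 0.90 and 1.41, and 17 members had one against 11.9%.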

How the data were processed

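The authors sorted tuft cells, trimmed reads with Cutadapt 1.15, aligned them with STAR 2.6.0 to GRCm38 and estimated expected counts and TPM per gene with RSEM (version not given in the sources used here). The deposited expected counts are estimated counts before any normalization, and 8.79% of those above 0 were not whole, since RSEM divides reads that match several genes. The deposited TPM values are scaled by gene length and library by the authors. The weights that the authors derived from estimated proportions of cell types were not rebuilt, their FPKM tables were not used, and 24 columns of the count tables that match no sample were left out. Gene positions came from GENCODE by gene ID, and 14020 genes with more than 5 reads in at least 6 of 45 libraries were tested.

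Counts were rounded and normalized with TMM, and diets were compared within each set with edgeR's quasi-likelihood test (edgeR 4.0.16, R 4.3.3) with Benjamini-Hochberg adjustment over all genes tested, where a call is an adjusted p under 0.1. The interaction was fitted over 45 libraries. Alternatives were DESeq2 1.42.0, limma 3.58.1 on log2(TPM + 1) and log2(TPM + 0.1), other size factors, filters, covariates and omitted libraries. The edgeR script was tested on simulated data. No 2 libraries held identical values. Total reads set the precision, and genes with few reads, such as Ccne1, have wide errors. Pcna, Ccnb1 and Ccnb2 have processed pseudogene copies with reads (Pcna-ps2, Ccnb1-ps and Ccnb2-ps), and their counts are uncertain to that extent.

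The rule for named members took, in each set, the 4 S phase and 5 mitosis members with the smallest p, the 3 highest median TPM of each list, Mki67, Top2a, Pcna, Cdk1, Mcm2 and Ccnb1, and any called member. Of the other lists it took the called genes (at most 6) and Cdkn1a, Ccnd1 and Ccnd2. Further members are given in brief so that all are accounted for. Members, lists and tests were chosen with earlier results of these data known. Promoter windows came from RefSeq on GRCm38.p6.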

Additional observations from a re-analysis of the deposited data

How the results depend on the processing

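At 9 weeks, called S phase genes (1 of 14) numbered 7 with DESeq2, 8 with the mouse number series as a term, 2 without the filter on low counts and 2 with robust dispersion, and 0 without libraries under 500000 reads, with the tuft or the crypt stem covariate, in 1 fit over 45 libraries and with limma on log2(TPM + 1), log2(TPM + 0.1) or unfiltered log2(TPM + 1). Called mitosis genes (4 of 27) numbered 13 with DESeq2, 9 with the series term, 2 without libraries of few reads, 2 in 1 fit over 45 libraries, 1 without the libraries rich in Paneth markers, and 0 with either covariate and with each limma fit. Leaving out 1 library gave 0 to 12 and 1 to 22. Leaving out the first, middle or last series of mouse numbers gave 0, 7 and 0 S phase calls and 0, 7 and 4 mitosis calls. Over all 14020 genes, 0, 642 and 173 were then called. At 22 weeks the counts were 0 in each of these settings run for that set, except for mitosis. The mitosis count was 7 without RFD mouse 1 (4.63% of all genes called) and 1 without the first series (514 of 14020 genes called). Omissions of 1 library thus gave 0 to 7. Both medians stayed positive in all settings run. Of the named genes, Mcm7 at 22 weeks (-0.06 in log2) turned positive with the series term (0.044) and with limma (0.097, 0.199 and, unfiltered, 0.097) and ranged from -0.257 to 0.351 over omissions, and Pcna (-0.125) ranged from -0.254 to 0.077. The causes were not tested. RFD and HFD mice share no number within a set. By the study's methods, separate groups of mice were fed for 9 or 22 weeks, so a number found in both sets is not a shared animal. The interaction fit with mouse number as a block used 32 libraries and joins different mice. It called 0 members and had 7 at an unadjusted p under 0.05 (5.01% of all genes), and it carries no pairing by animal. The omission of single libraries and of those rich in Paneth markers was chosen after seeing the data. A p that misses the threshold does not show that levels were alike, since edgeR's estimate of the coefficient of variation between mice was 0.794 at 9 weeks and 0.702 at 22 weeks.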
